A study of Homo sapiens with 32 samples.

Results

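Salinomycin (Sal) and dasatinib (Das) were compared directly in MDA-MB-468 cells after 24 h, without the shared control libraries, to ask which transcripts tell the effects of these drugs apart. MDA-MB-468 is an established human line of triple-negative breast cancer, grown here as a monolayer and known for an amplified EGFR gene. The comparison took all libraries whose labels name 1 of the drugs alone and the 24 h time point: 4 Sal libraries (0.5 μM) and 4 Das libraries (15 μM), 8 of the 32 libraries of the series, and 15703 of the 48804 listed genes had enough counts to be tested. Other cells were given PBS (control) or the 2 drugs together (S + D, same doses) for 24 h. Sal and Das alone were also given for 72 h, each with 4 libraries from biological replicates of this 1 line. Each drug was given at a single dose, the study chose the doses for a like inhibition of growth in this line, and the doses differ, so potency was not compared.

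In each group 1 library carries no replicate number and the others are numbered 1 to 3; values per library are given in the order unnumbered, 1, 2, 3. Levels are CPM, each count scaled by the size of its library, with TMM factors, log2 Sal/Das is above 0 where a gene was higher with Sal, and the number after ± is the SE of the fit.

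Das is a tyrosine kinase inhibitor that occupies the ATP site of the SRC family and ABL kinases, and it also binds the discoidin domain receptors, ephrin receptors, KIT and the PDGF receptors. SRC family kinases carry signals from growth factor receptors and integrins to the RAS and ERK cascade. ERK output is commonly read from immediate early genes such as EGR1 and FOS, and from feedback genes such as the DUSP phosphatases, the Sprouty proteins and the ETS factors ETV4 and ETV5, which depend on continued ERK activity. Sal is a polyether ionophore made by a Streptomyces species, which carries potassium and other monovalent cations across membranes and is known for its activity on breast cancer cells with stem-like traits. ATF4, the transcription factor of the integrated stress response, switches on amino acid transporters and biosynthetic enzymes when translation initiation is restrained. The aryl hydrocarbon receptor (AHR) is a transcription factor opened by many planar small molecules, with CYP1A1 as its classical target.

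Total counts lay between 28721753 and 38532313 for the Sal libraries and between 25692561 and 40576754 for the Das libraries. The unnumbered libraries stood apart: the first principal component, with 44.4% of the variance, separated them from the numbered ones, and the drugs separated on the second, with 34.0%. In 15.6% of the genes tested 1 Sal library lay apart from the other 3, and in 88.8% of these it was the unnumbered one; for Das the shares were 13.6% and 89.6%. Results of the direct comparison are therefore given beside a fit with the replicate number as a block, where that changes a call or moves a count by more than 1.5 times. For the comparisons with the control and S + D and for the interaction, only some counts are given with the block.

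The epithelial identity of the line was borne out by its markers, since all 12 epithelial genes listed for it had at least 1 CPM in every one of the 8 libraries. The lowest were the keratins KRT6B, at 1.90 to 5.67 CPM, and KRT14, at 2.56 to 9.55 CPM. PGR had at most 1 count, ESR1 lay between 3.79 and 8.42 CPM, and ERBB2 between 96.5 and 195 CPM. Summed markers of other cell types rested on single genes: fibroblast markers reached 23.6 to 57.5 CPM with Sal and 45.3 to 63.1 CPM with Das through COL1A1, with COL1A2 at 0, and leukocyte markers 11.98 to 14.5 and 2.73 to 4.16 CPM through CD14. Endothelial markers summed to 1.74 to 2.90 CPM with Sal and 1.73 to 2.00 CPM with Das, and of the adipocyte markers only PLIN1 had counts, at 1.84 to 2.57 and 1.44 to 1.85 CPM.

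Past both cutoffs, fewer genes lay toward Sal than toward Das. With edgeR's quasi-likelihood test, 50 genes were higher with Sal and 110 higher with Das, that is 0.318% and 0.701% of the genes tested. These genes had an adjusted p under 0.01, and their log2 fold change exceeded 1.5 in size. The genes higher with Sal were mostly those that Das had lowered, and the genes higher with Das mostly those that Das had raised, as called against the control. Of the 50, 46 are protein-coding and their median log2 Sal/Das was 2.189. Against the control 42 were called lower with Das (6.88% of all genes tested) and 1 was called higher. With Sal 7 of these 50 were called higher than the control and 5 lower, against 4.55% and 2.23% of all genes tested. Of the 110, 95 are protein-coding and their median was -2.23; 104 were called higher with Das than in the control, against 6.99% of all genes tested, while 3 were called higher and 3 lower with Sal. These comparisons use the same Sal and Das libraries as the direct one and share the control libraries, so they only place each drug.

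The S + D libraries, which took no part in the direct comparison, followed Das: their mean lay nearer to that of Das than to that of Sal in 43 of the 50 genes and in 97 of the 110. Comparisons of S + D with either drug reuse the Sal and Das libraries on which these genes were chosen, so they only place S + D. Against Sal, S + D was called lower in 42 of the 50 (7.06% of all genes tested) and higher in 93 of the 110 (5.83%). Against Das, S + D was called higher in 5 and lower in 2 of the 50, and lower in 23 and higher in 1 of the 110, where all genes tested gave 4.03% higher and 4.46% lower.

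No gene of the 160 overlapped between the 4 Sal and the 4 Das libraries, which holds for 19.3% of all genes tested. The 160 were chosen on these same libraries, so their lack of overlap only describes the choice. With the replicate block, 101 genes were higher with Sal (0.643%) and 153 with Das (0.974%), among them 49 of the 50 and all 110. The imbalance depended on the fit and the cutoff. By adjusted p alone 148 and 258 genes were called. With the block they were 965 and 1005, and in the numbered libraries 1633 and 1560. Of all genes tested, 1943 and 1925 had an unadjusted p under 0.05. Without the unnumbered Sal library the counts past both cutoffs were 83 and 132, and without 1 of the numbered libraries 24 to 35 and 73 to 81; without Das replicate 2, which gave the lowest count higher with Sal, they were 24 and 76. Leaving out the unnumbered Das library gave 56 and 98.

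**Figure D1:**
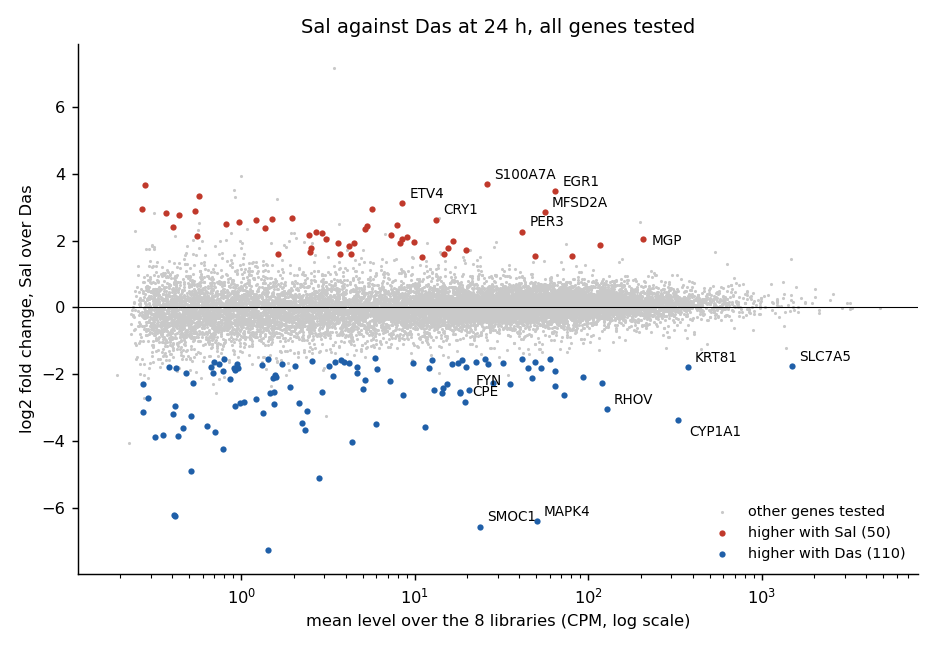
Log2 Sal/Das (vertical axis) against mean level (horizontal axis, log scale, CPM) of the 15703 genes tested at 24 h, with the genes past both cutoffs in colour. Past both cutoffs 110 genes are higher with Das and 50 with Sal. By adjusted p alone with the replicate block, 965 were higher with Sal and 1005 with Das. The farthest from 0 among the labelled ones, SMOC1 and MAPK4, lie on the Das side.

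ERK feedback and immediate early genes were the list with the most calls, 8, and 6 of these lay toward Sal. Of 25 tested members of 27, 6 were higher with Sal and 2 higher with Das at an adjusted p under 0.01, a rule met by 0.942% and 1.64% of all genes tested, with a median log2 Sal/Das of 0.64 against 0.01 over all genes tested. With the block 16 and 2 members were called (6.15% and 6.4% of all genes tested). These shares, without and with the block, also apply to the direct counts of every list below. Against the control, 13 members were called lower with Das and 4 with Sal, and with the block 20 (14% of all genes tested) and 11 (8.71%). EGR2 and EGR3 were too low to be tested.

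EGR1 (ENSG00000120738, GRCh37 chromosome 5, 137801168 to 137804992, plus strand), a zinc finger factor transcribed within minutes of ERK activation, stood at 153, 108, 109 and 105 CPM with Sal and at 23.8, 5.10, 5.82 and 8.14 CPM with Das. The Das libraries lay below all Sal libraries and below the control (163 to 259 CPM), and S + D gave 1.49 to 10.9 CPM. All Sal libraries also lay below the control. Its log2 Sal/Das was 3.47 ± 0.48 (adjusted p = 0.00267, 0.0149 without Das replicate 3). Against the control, EGR1 differed by -4.22 ± 0.58 (adjusted p = 7.31e-05) with Das and by -0.76 ± 0.51 (adjusted p = 0.367) with Sal. Its promoter is shown because it carries binding letters of the serum response factor (SRF), through which ERK-driven ETS factors act: 250 bases before the start site, GRCh38.p14 chr5:138465229-138465478, plus strand, from RefSeq, with 2 CArG boxes in capitals.

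EGR1 promoter: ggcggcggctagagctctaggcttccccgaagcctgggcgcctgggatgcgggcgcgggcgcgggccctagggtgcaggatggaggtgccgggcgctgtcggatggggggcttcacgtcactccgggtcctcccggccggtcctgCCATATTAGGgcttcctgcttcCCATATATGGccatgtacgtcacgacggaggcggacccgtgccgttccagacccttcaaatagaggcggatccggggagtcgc

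The CArG box of SRF was searched on both strands in the 21 promoters that the reference table held for 25 of the genes named here, and it was found in 2 of them, EGR1 and CYP1A1, against 1.16% of all 35116 promoters of this length. In CYP1A1 the match overlapped the TATA box. The AP-1 element TGANTCA and the ATF4 element TGATGNAA were each found in 1 of the 21, SLITRK6, against 6.57% and 3.14% of all promoters. FOSL1, ETV4, ETV5 and GRAMD1B had no entry.

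ETV4, an ETS factor of the PEA3 group, reached 16.1, 16.4, 12.9 and 15.5 CPM with Sal and 2.15, 1.82, 1.72 and 1.27 CPM with Das. ETV4 had a log2 Sal/Das of 3.12 ± 0.18 (adjusted p = 2.71e-05). Its relative ETV5 gave 10.8, 9.63, 10.4 and 9.19 CPM and 1.03, 1.32, 1.41 and 1.498 CPM. ETV5 had a log2 Sal/Das of 2.94 ± 0.17 (adjusted p = 2.4e-05). For both, the Das and S + D libraries lay together, with S + D at 0.980 to 3.71 and 1.01 to 1.25 CPM, and the control at 22.3 to 33.3 and 10.6 to 14.7 CPM. All Sal libraries of ETV4 lay under the control, while those of ETV5 overlapped it. SPRY4, which restrains the RAS and ERK cascade as a feedback inhibitor, stood at 8.80, 13.3, 14.0 and 11.5 CPM with Sal and 2.13, 2.67, 3.00 and 2.88 CPM with Das. SPRY4 had a log2 Sal/Das of 2.16 ± 0.19 (adjusted p = 0.000229). SPRY4 was also called lower with Sal than in the control (24.7 to 30.0 CPM, log2 -1.17 ± 0.14, adjusted p = 6.22e-05). FOSL1, the FRA1 subunit of AP-1, had 5.29, 3.13, 2.17 and 2.88 CPM with Sal and 0.431, 0.498, 0.688 and 0.499 CPM with Das. FOSL1 had a log2 Sal/Das of 2.68 ± 0.32 (adjusted p = 0.0013). DUSP6, the phosphatase that removes activating phosphates from ERK in the cytoplasm, had 3.62, 7.54, 7.89 and 6.87 CPM and 1.22, 2.02, 2.22 and 1.88 CPM. DUSP6 had a log2 Sal/Das of 1.82 ± 0.28 (adjusted p = 0.00502). Of its exon bases 28.6% are shared with another gene, and its adjusted p was 0.0231 without Das replicate 1.

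The members higher with Das were EPHA4 and MYC. EPHA4, an ephrin receptor and itself a kinase of the class that Das binds, gave 11.96, 18.3, 17.7 and 18.0 CPM with Sal and 29.9, 40.8, 39.6 and 43.2 CPM with Das. EPHA4 had a log2 Sal/Das of -1.21 ± 0.17 (adjusted p = 0.00311). MYC, a growth-promoting transcription factor, had 55.8, 83.9, 74.7 and 81.5 CPM with Sal and 119, 137, 133 and 144 CPM with Das. MYC had a log2 Sal/Das of -0.84 ± 0.14 (adjusted p = 0.00674). MYC was called lower than the control (125 to 148 CPM) with Sal (log2 -0.85 ± 0.12, adjusted p = 0.000279), while with Das it differed by -0.01 ± 0.12 (adjusted p = 0.978). Without Das replicate 1 the adjusted p between the drugs was 0.0157 for EPHA4 and 0.0307 for MYC.

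Several members missed the threshold and passed with the block, among them ETV1 (2.48 ± 0.46, adjusted p = 0.0121 and 1.51e-05), FOSB (2.69 ± 0.55, 0.0188 and 0.000139), DUSP5 (1.43 ± 0.32, 0.0255 and 9.7e-05) and JUNB (1.34 ± 0.37, 0.0535 and 2.33e-05). SPRY1 (0.16 ± 0.12), SPRY2 (0.10 ± 0.12) and PHLDA1 (-0.01 ± 0.19) were called in neither fit.

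Beyond the ERK list, the following protein-coding genes had the highest log2 Sal/Das among those with at least 5 CPM and no overlap. They include genes of an S100 protein, transporters, circadian repressors, a matrix protein and an enzyme of tryptophan breakdown. S100A7A (ENSG00000184330, GRCh37 chromosome 1, 153388996 to 153395698, plus strand), a calcium-binding protein of keratinizing epithelia, stood at 29.4, 56.3, 57.0 and 50.8 CPM with Sal and at 6.77, 2.46, 2.44 and 3.30 CPM with Das. S100A7A had a log2 Sal/Das of 3.68 ± 0.37 (adjusted p = 0.000511). All Sal libraries lay under the control (60.5 to 68.4 CPM), and S + D lay under Das (1.18 to 2.39 CPM). Reads of S100A7A could also come from its near-identical neighbour S100A7, so its counts are uncertain. KMO, the kynurenine 3-monooxygenase of tryptophan breakdown, had 12.4, 13.0, 16.4 and 12.05 CPM and 3.09, 1.67, 2.44 and 2.46 CPM (log2 Sal/Das 2.48 ± 0.20, adjusted p = 0.000151), and it shares 28.4% of its exon bases with another gene. SLITRK6, a neuronal transmembrane protein, had 11.04, 14.7, 16.7 and 15.7 CPM and 2.30, 3.93, 3.57 and 3.84 CPM. SLITRK6 had a log2 Sal/Das of 2.099 ± 0.21 (adjusted p = 0.000479).

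MFSD2A, which carries lysophosphatidylcholine with docosahexaenoic acid into cells, was the 1 gene of the 12 highest that was called higher than the control with Sal, and the 1 not called lower with Das. It reached 191, 67.8, 55.8 and 78.7 CPM with Sal against 19.6, 11.95, 12.3 and 10.8 CPM with Das. MFSD2A had a log2 Sal/Das of 2.85 ± 0.40 (adjusted p = 0.0031). The control lay at 10.3 to 12.7 CPM, close to Das, and S + D at 54.6 to 116 CPM, so MFSD2A differed from the control by 3.11 ± 0.37 (adjusted p = 4.76e-05) with Sal and by 0.26 ± 0.35 (adjusted p = 0.654) with Das. SLC5A1, the intestinal sodium and glucose cotransporter SGLT1, had 4.31, 10.3, 10.5 and 9.25 CPM with Sal and 1.34, 1.88, 2.16 and 1.38 CPM with Das. SLC5A1 had a log2 Sal/Das of 2.35 ± 0.30 (adjusted p = 0.00197). TNC, the matrix protein tenascin C, had 7.17, 10.96, 8.80 and 8.99 CPM and 1.20, 2.05, 2.03 and 1.42 CPM (log2 Sal/Das 2.43 ± 0.22, adjusted p = 0.000327), and was called lower than the control (14.8 to 22.4 CPM) with Das (-3.44 ± 0.21, adjusted p = 3.17e-08) and with Sal (-1.01 ± 0.19, adjusted p = 0.00205). Leaving out 1 library took the adjusted p of MFSD2A to 0.0181 without Das replicate 1 and that of SLC5A1 to 0.0106 without Das replicate 3.

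CRY1 and PER3, repressors of the circadian clock, were also higher with Sal. CRY1 had 30.3, 19.9, 19.2 and 21.7 CPM with Sal and 3.26, 3.93, 4.04 and 3.57 CPM with Das (log2 Sal/Das 2.63 ± 0.18, adjusted p = 6.74e-05), with the control at 18.8 to 23.1 CPM. PER3 had 32.7, 84.8, 82.5 and 74.3 CPM and 13.0, 14.2, 13.7 and 16.3 CPM (log2 Sal/Das 2.27 ± 0.27, adjusted p = 0.0013), with the unnumbered Sal library lowest in its group and the control at 87.2 to 103 CPM. PER3 shares 16.6% of its exon bases with another gene.

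Several genes farthest toward Das had under 2 CPM with Sal. SMOC1 (ENSG00000198732, GRCh37 chromosome 14, 70320848 to 70499083, plus strand), a secreted calcium-binding matrix protein that modulates BMP signals, stood at 0.191, 0.443, 0.838 and 0.537 CPM with Sal and at 49.4, 50.0, 46.0 and 42.6 CPM with Das. Every Das library lay above every Sal library, the control held 0.248 to 0.636 CPM and S + D 23.7 to 39.5 CPM. Its log2 Sal/Das was -6.57 ± 0.31 (adjusted p = 1.01e-05). Its promoter is printed as that of the gene with the lowest log2 Sal/Das among those named: 250 bases before the start site, GRCh38.p14 chr14:69879166-69879415, plus strand, from RefSeq, with the TATA box (TATAAA, here read on the minus strand) in capitals.

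SMOC1 promoter: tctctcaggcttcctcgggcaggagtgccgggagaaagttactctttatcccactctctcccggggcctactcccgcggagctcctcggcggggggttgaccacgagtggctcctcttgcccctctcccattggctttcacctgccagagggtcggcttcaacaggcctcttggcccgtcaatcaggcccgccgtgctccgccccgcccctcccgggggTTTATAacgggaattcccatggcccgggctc

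TATAAA on either strand was found in 5 of the 21 promoters (CYP1A1, DDIT4L, KMO, S100A7A and SMOC1) and in 10.7% of all 35116. MAPK4 (ENSG00000141639, GRCh37 chromosome 18, 48086457 to 48258196, plus strand), an atypical MAP kinase outside the classical ERK cascade, had 0.491, 1.57, 1.15 and 1.53 CPM with Sal and 64.0, 110.0, 112 and 113 CPM with Das. MAPK4 had a log2 Sal/Das of -6.39 ± 0.36 (adjusted p = 2.4e-05). The unnumbered Das library was the lowest of its group, and S + D (22.7 to 56.3 CPM) lay under the Das libraries. RASD1, a RAS-related G protein first known as induced by dexamethasone, had 0.273, 0.0887, 0.140 and 0.113 CPM and 5.62, 5.89, 6.10 and 4.34 CPM. RASD1 had a log2 Sal/Das of -5.11 ± 0.31 (adjusted p = 3.18e-05). In S + D RASD1 returned 0.569 to 1.58 CPM, nearer to Sal and to the control (0.138 to 0.564 CPM) than to Das. DIRAS2, a further RAS-related G protein, had 1.34, 1.77, 1.99 and 1.87 CPM and 19.3, 20.9, 23.1 and 20.8 CPM (log2 Sal/Das -3.59 ± 0.16, adjusted p = 8.34e-06), and RHOV, an atypical small GTPase, 35.2, 24.8, 23.1 and 26.5 CPM and 342, 194, 203 and 170.0 CPM. RHOV had a log2 Sal/Das of -3.05 ± 0.24 (adjusted p = 0.000151).

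COL15A1, a basement membrane collagen, had 0.218, 0.857, 0.768 and 0.170 CPM with Sal and 7.44, 7.62, 8.32 and 9.14 CPM with Das. COL15A1 had a log2 Sal/Das of -4.03 ± 0.43 (adjusted p = 0.000708). DDIT4L, a relative of the mTOR inhibitor REDD1, had 0.927, 0.975, 1.05 and 0.933 CPM and 16.8, 8.06, 9.54 and 9.37 CPM (log2 Sal/Das -3.49 ± 0.26, adjusted p = 0.000103), and was called lower with Sal than in the control (1.61 to 2.17 CPM, log2 -0.91 ± 0.22, adjusted p = 0.00971). CPE, a carboxypeptidase that trims prohormones, had 3.11, 5.11, 5.76 and 5.18 CPM and 25.6, 34.8, 38.8 and 37.0 CPM. CPE had a log2 Sal/Das of -2.83 ± 0.21 (adjusted p = 0.000113). All 3 were low in the control, where CPE lay at 1.62 to 4.79 CPM and COL15A1 at 1.27 to 1.73 CPM. GRAMD1B, which moves cholesterol from the plasma membrane to the endoplasmic reticulum, had 14.5, 23.8, 22.2 and 20.6 CPM and 112, 129, 125 and 135 CPM. GRAMD1B had a log2 Sal/Das of -2.62 ± 0.16 (adjusted p = 3.18e-05). KCNIP3, a calcium sensor that also acts as a transcriptional repressor, had 4.01, 6.95, 4.86 and 5.20 CPM and 27.8, 32.6, 31.9 and 32.3 CPM. KCNIP3 had a log2 Sal/Das of -2.56 ± 0.17 (adjusted p = 6.74e-05).

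NR4A3, an orphan nuclear receptor of the immediate early kind, was higher than the control (0.410 to 0.484 CPM) with both drugs and more so with Das. It had 5.37, 1.06, 1.502 and 1.499 CPM with Sal, with the unnumbered library highest, and 12.6, 15.5, 15.7 and 15.0 CPM with Das (log2 Sal/Das -2.62 ± 0.46, adjusted p = 0.00919), and it was called higher than the control with Sal (2.36 ± 0.42, adjusted p = 0.00142) and with Das (4.99 ± 0.42, adjusted p = 6.63e-07). Leaving out Sal replicate 3 took its adjusted p to 0.0362.

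**Figure D2:**
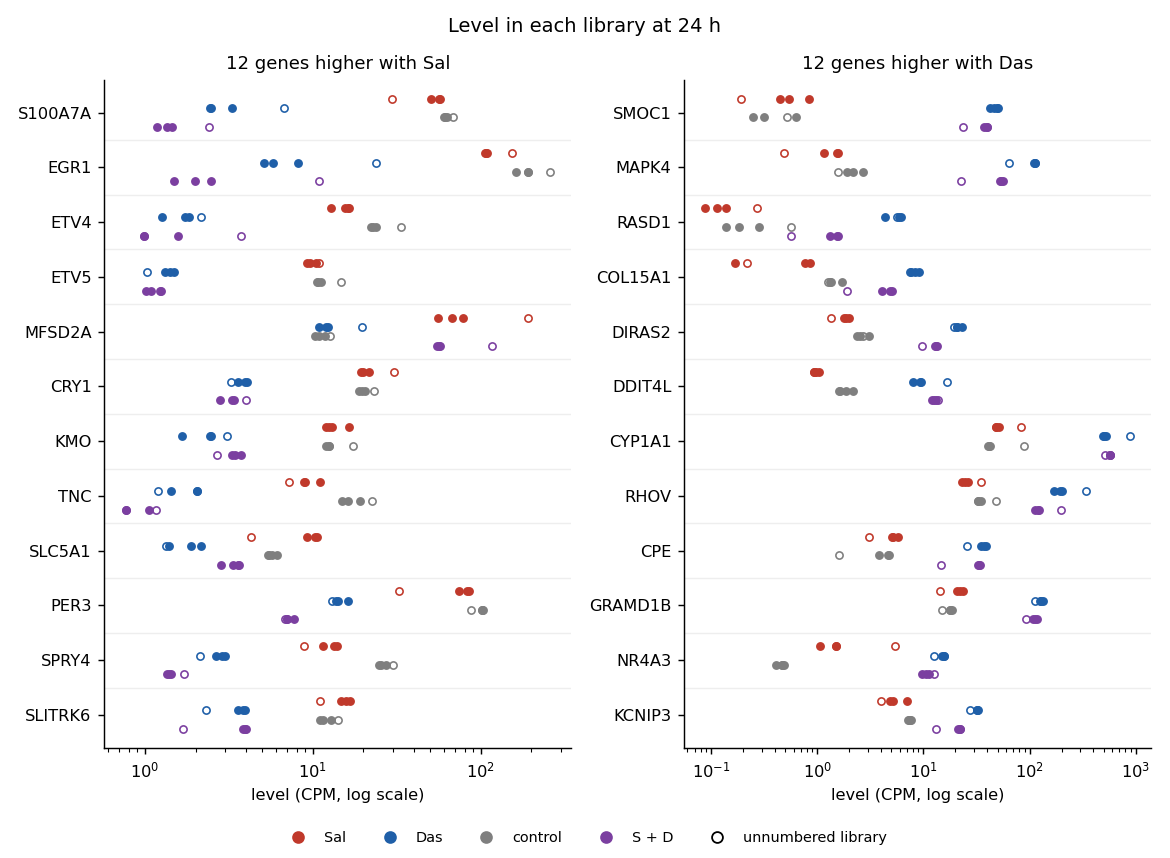
Level in each library (CPM, log scale) of 24 genes, with points for Sal, Das, control and S + D at 24 h. They have the highest and lowest log2 Sal/Das among protein-coding genes past both cutoffs with at least 5 CPM. Absence of overlap between the Sal and Das points was a condition of their choice. MFSD2A is apart in that its control points lie with Das (10.3 to 12.7 CPM).

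All tested targets of AHR had a log2 Sal/Das below 0, and the cytochromes CYP1A1 and CYP1B1 passed the test. Of 10 genes tested, 0 were called higher with Sal and 2 higher with Das by edgeR, 0 and 7 with the block, and none had a log2 Sal/Das above 0 (range -3.37 to -0.22, median -0.79). At an unadjusted p under 0.05, 8 were higher with Das and 0 with Sal, where 12.3% and 12.4% of all genes tested were, and DESeq2 called 5 and 0 (4.93% and 4.27% of all genes tested). Against the control, 4 were called higher with Das and 0 with Sal (6.99% and 4.55% of all genes tested). With the block 7 and 0 were (13.4% and 9.97%). CYP1A1 (ENSG00000140465, GRCh37 chromosome 15, 75011883 to 75017877, minus strand), a cytochrome P450 that oxidizes polycyclic aromatic compounds, stood at 83.3, 51.7, 48.8 and 48.5 CPM with Sal and at 885, 526, 494 and 504 CPM with Das. All Das libraries lay above all Sal libraries and above the control (40.9 to 89.2 CPM), S + D gave 513 to 579 CPM, and both unnumbered libraries were highest in their groups. Its log2 Sal/Das was -3.37 ± 0.26 (adjusted p = 0.000128). Its promoter is shown with the TATA box in capitals, 250 bases before the start site, GRCh38.p14 chr15:74725529-74725778, minus strand, from RefSeq.

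CYP1A1 promoter: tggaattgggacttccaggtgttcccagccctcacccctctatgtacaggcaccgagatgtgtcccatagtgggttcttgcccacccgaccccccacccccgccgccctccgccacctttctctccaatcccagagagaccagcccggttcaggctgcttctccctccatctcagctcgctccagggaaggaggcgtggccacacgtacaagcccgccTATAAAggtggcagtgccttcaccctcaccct

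The xenobiotic response element bound by AHR, searched as TNGCGTG on both strands, was in 0 of the 21 promoters and in 4.52% of all 35116. The window covers only these bases, and enhancers lying farther from the start were not searched. CYP1B1, a related P450, had 683, 851, 928 and 863 CPM with Sal and 1645, 1919, 1949.6 and 2193 CPM with Das (log2 Sal/Das -1.21 ± 0.12, adjusted p = 0.000581), with the control at 775 to 875 CPM and S + D at 1296 to 2141 CPM. NQO1, a quinone reductase that answers to both AHR and NRF2, had a mean of 304 CPM with Sal and 505 CPM with Das (log2 Sal/Das -0.73 ± 0.13, adjusted p = 0.0111, 0.00067 with the block). AHRR, the repressor of the receptor, was called in neither fit (-0.38 ± 0.15, adjusted p = 0.17 and 0.0821). The wider list of 21 NRF2 targets, genes of antioxidant defence, had 0 called either way (6 higher with Das and 0 with Sal at an unadjusted p under 0.05, 2 and 0 with DESeq2, 2 higher with Das with the block). Its members of highest CPM, a level that is not per length, were PGD, of the pentose phosphate pathway, at 356, 443, 403 and 445 CPM with Sal and 476, 476, 476 and 463 CPM with Das (adjusted p = 0.251), and TKT of the same pathway (adjusted p = 0.219).

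Of the amino acid and stress genes driven by ATF4, those that passed were all higher with Das. Of 29 tested, 0 were called higher with Sal and 3 higher with Das by edgeR, and 0 and 14 with the block, with a median log2 Sal/Das of -0.34. At an unadjusted p under 0.05, 0 and 14 differed, and DESeq2 called 0 and 7. Against the control, 17 were called higher with Das and 7 with Sal, where 6.99% and 4.55% of all genes tested were. With the block 25 and 20 were, against 13.4% and 9.97% of all genes tested. None were called lower by edgeR without the block. SLC7A5 (ENSG00000103257, GRCh37 chromosome 16, 87863629 to 87903113, minus strand), the light chain of the leucine transporter LAT1, stood at 802, 661, 547 and 702 CPM with Sal and 2809, 2249.8, 2028 and 2115 CPM with Das. The Sal libraries overlapped the control (513 to 639 CPM), and S + D, at 2290.1 to 2765 CPM, overlapped Das. Its log2 Sal/Das was -1.76 ± 0.15 (adjusted p = 0.00019).

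SLC3A2, the heavy chain of the same transporter, passed only with the block (-1.24 ± 0.29, adjusted p = 0.03 and 1.55e-05), with means of 266 CPM with Sal and 629.7 CPM with Das. CTH, the last enzyme of the route from methionine to cysteine, had 21.2, 20.2, 23.3 and 24.0 CPM and 32.9, 37.1, 37.8 and 41.2 CPM. CTH had a log2 Sal/Das of -0.74 ± 0.11 (adjusted p = 0.00451). CTH was called higher than the control (8.34 to 10.96 CPM) with Sal (1.18 ± 0.12, adjusted p = 6.98e-06) and with Das (1.93 ± 0.12, adjusted p = 3.17e-08), and S + D was highest at 47.6 to 63.7 CPM. CBS, the enzyme before it, had 259.7, 237, 215 and 245 CPM and 441, 387, 378 and 338 CPM (log2 Sal/Das -0.68 ± 0.11, adjusted p = 0.00611), though 36.8% of its exon bases are shared with another gene. Asparagine synthetase ASNS (-0.73 ± 0.17, adjusted p = 0.0306 and 0.000647) and the serine pathway enzymes PHGDH (-0.67 ± 0.14, 0.0188 and 0.00142) and PSAT1 (-0.52 ± 0.14, 0.0479 and 0.000723) passed only with the block. ATF4 itself (-0.08 ± 0.11, adjusted p = 0.742) and the stress genes DDIT3 (-0.13 ± 0.50, 0.917) and DDIT4 (0.22 ± 0.33, 0.741) were called in neither fit. Leaving out 1 library took the adjusted p of CTH to 0.0233 without Das replicate 1 and that of CBS to 0.0267 without Sal replicate 3.

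Of 14 cytosolic tRNA synthetases, which charge tRNA with amino acids, 0 were called in either direction. At an unadjusted p under 0.05, 1 was higher with Sal and 6 with Das. DESeq2 called 0 and 1, and the block 0 and 1. Against the control, 8 were called higher with Das and 5 with Sal (6.99% and 4.55% of all genes tested). EPRS1 lay at 988, 813, 886 and 862 CPM with Sal and 715, 724, 773 and 780.4 CPM with Das (adjusted p = 0.131), and GARS1 at 798, 709, 725 and 753 and 869, 844, 866 and 907 CPM (adjusted p = 0.139). Among 24 chaperones and unfolded protein response genes of the endoplasmic reticulum 0 were called (9 higher with Sal and 2 higher with Das at an unadjusted p under 0.05, and 3 and 1 with DESeq2), and 5 higher with Sal and 2 higher with Das with the block. CALR, the calcium-binding chaperone calreticulin, had 2461, 1727, 1559 and 1888 CPM with Sal and 1299, 1239.8, 1309.6 and 1154 CPM with Das (log2 Sal/Das 0.62 ± 0.14, adjusted p = 0.0293, 0.00408 with the block), and its partner CANX 1711, 1861, 1944 and 1916 and 1339, 1717, 1838 and 1892 CPM (adjusted p = 0.54). The 12 heat shock genes gave 0 calls (5 higher with Sal and 0 higher with Das at an unadjusted p under 0.05, and 2 and 0 with DESeq2) and 3 higher with Sal with the block; HSP90AA1 (0.29 ± 0.10, adjusted p = 0.115) and HSPA8 (-0.07 ± 0.17, 0.848), both cytosolic chaperones, had the highest CPM.

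Without the block, the keratinization genes that passed were higher with Sal except for 1 hair keratin. Of 24 tested, 5 were called higher with Sal and 1 higher with Das, and 14 and 3 with the block, with a median log2 Sal/Das of 0.68. In 5 members the log2 Sal/Das was below 0. KRT7 was not called without the block, yet it lay higher with Das without overlap, at 921 to 1177 CPM with Sal and 1470 to 1785 CPM with Das. KRT17 lay at 13.3 to 52.6 CPM with Sal and 39.7 to 121 CPM with Das, with overlap. Against the control, 15 members were called lower with Das and 2 with Sal (6.88% and 2.23% of all genes tested). With the block 15 were called lower with Sal (8.71%). IVL, involucrin of the cornified envelope, had 2.67, 5.79, 3.95 and 5.35 CPM with Sal and 0.718, 1.20, 1.00 and 0.807 CPM with Das (log2 Sal/Das 2.25 ± 0.29, adjusted p = 0.00187), with the control at 7.33 to 9.04 CPM and S + D at 0.398 to 0.493 CPM. KLK6, a secreted serine protease, had 92.6, 231, 204 and 212 CPM and 26.7, 60.6, 52.8 and 61.2 CPM (log2 Sal/Das 1.88 ± 0.33, adjusted p = 0.00906), and 20.5% of its exon bases are shared with another gene. KRT23, an acidic keratin, had 59.6, 89.6, 85.0 and 85.9 CPM and 17.4, 34.0, 36.4 and 33.9 CPM. KRT23 had a log2 Sal/Das of 1.40 ± 0.23 (adjusted p = 0.00705). Leaving out 1 library took the adjusted p to 0.0345 without Das replicate 2 for KLK6, 0.0271 without Sal replicate 3 for KRT23 and 0.0102 without Das replicate 3 for IVL.

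KRT6B, a keratin of wounded and basal epithelium with a near-identical copy in KRT6A, had 3.84, 5.67, 5.62 and 5.35 CPM and 2.27, 1.90, 2.32 and 2.54 CPM. KRT6B had a log2 Sal/Das of 1.19 ± 0.18 (adjusted p = 0.0045). KRT15, a keratin of basal cells, had 69.1, 80.8, 79.7 and 84.6 CPM and 40.3, 46.3, 44.96 and 41.2 CPM. KRT15 had a log2 Sal/Das of 0.87 ± 0.10 (adjusted p = 0.0013). In each of these genes all Sal libraries lay above all Das libraries. KRT81, a hair keratin close in sequence to KRT83 and KRT86, ran the other way, at 237, 150.2, 128 and 154 CPM with Sal and 564, 624, 548 and 589.5 CPM with Das (log2 Sal/Das -1.79 ± 0.18, adjusted p = 0.000582), against 114 to 165 CPM in the control. SPRR1B (2.82 ± 0.54, adjusted p = 0.014 and 0.00513) and S100A7 (2.57 ± 0.47, 0.011 and 0.000136) passed only with the block. The adjusted p of KRT6B was 0.0262 without Das replicate 1.

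Of 24 tested genes of integrins, laminins and matrix, 2 were called higher with Sal and 1 higher with Das, and 8 and 2 with the block (median 0.09). MMP7, the matrix protease matrilysin, had 5.37, 5.38, 5.13 and 4.04 CPM with Sal and 1.68, 1.03, 1.03 and 1.11 CPM with Das (log2 Sal/Das 2.03 ± 0.21, adjusted p = 0.000608), and TNC, given above, was the other. THBS1, thrombospondin 1, a matrix protein that activates latent TGF-beta, had 44.2, 42.7, 39.1 and 36.0 CPM and 77.8, 102, 102 and 105 CPM. THBS1 had a log2 Sal/Das of -1.25 ± 0.13 (adjusted p = 0.000577). THBS1 was called lower than the control (87.8 to 185 CPM) with Sal (-1.48 ± 0.23, adjusted p = 0.00054) and not with Das (-0.23 ± 0.23, adjusted p = 0.527). The 18 tested genes of SRF, actin and focal adhesions had 0 calls (1 higher with Sal and 2 higher with Das at an unadjusted p under 0.05, and 1 and 1 with DESeq2) and 2 higher with Das with the block; ACTB, the cytoplasmic actin, was at 3000.1, 3555, 3195 and 3349 CPM with Sal and 3404, 3432, 3137 and 3456 CPM with Das (adjusted p = 0.875), in both under the control (4929 to 5246 CPM), and FLNA, filamin A, was not called either (adjusted p = 0.816). The 16 targets of YAP and TEAD, which read out cell contact and tension, had 0 calls (4 higher with Sal and 1 higher with Das at an unadjusted p under 0.05, and 4 and 1 with DESeq2), and 4 higher with Sal and 1 higher with Das with the block. AMOTL2, a YAP target and feedback inhibitor, had 216, 174, 148 and 176 CPM and 103, 120.0, 115 and 115 CPM (log2 Sal/Das 0.66 ± 0.13, adjusted p = 0.0138, 0.0035 with the block), while PTPN14, which binds YAP, was not called (adjusted p = 0.937). Among 10 genes of the epithelial to mesenchymal transition 0 were called (1 higher with Sal and 1 higher with Das at an unadjusted p under 0.05, and 1 and 0 with DESeq2, 1 higher with Sal with the block), with EPCAM (adjusted p = 0.494) and the splicing regulator ESRP1 (adjusted p = 0.466) as those of highest CPM.

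**Figure D3:**
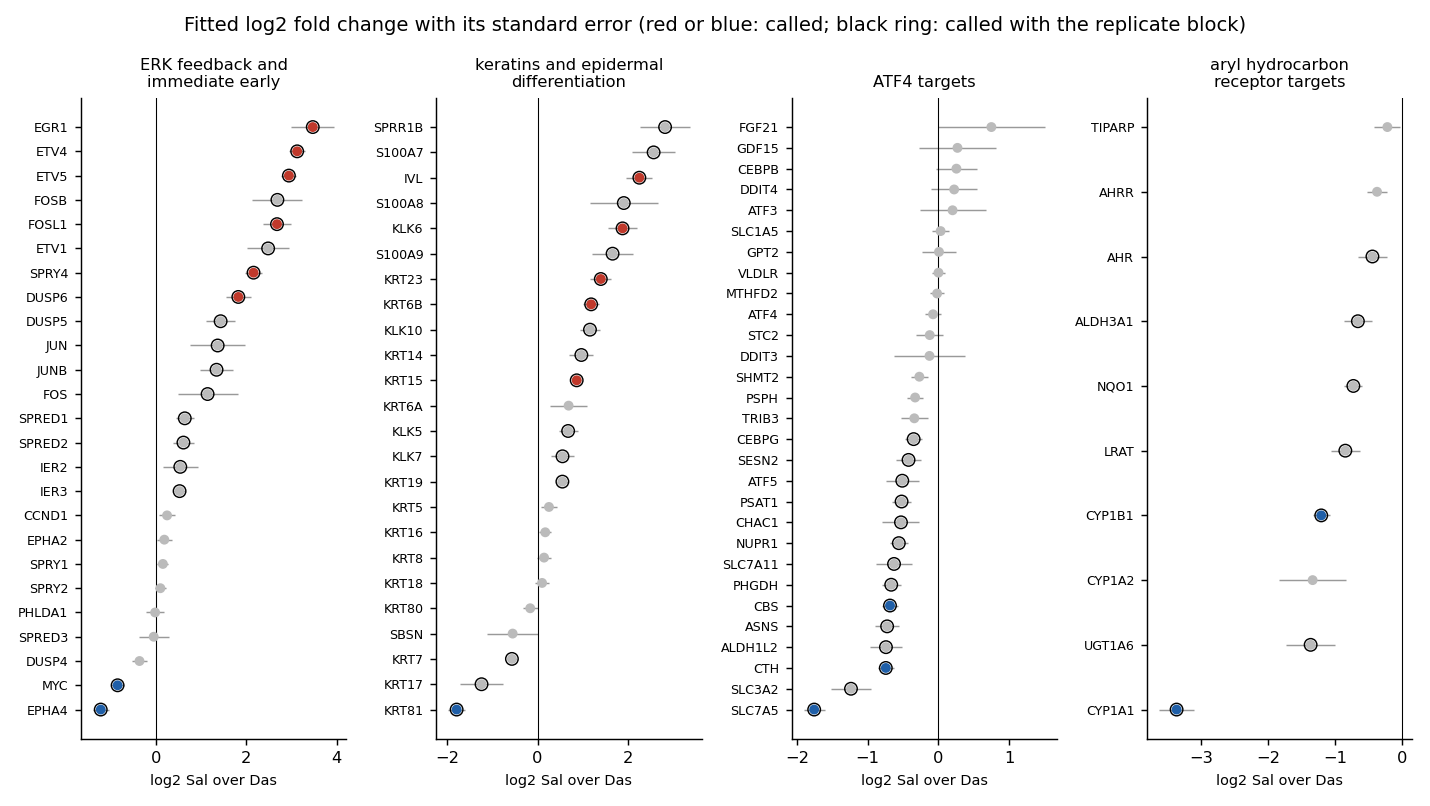
Log2 Sal/Das at 24 h (horizontal axis) of the members of the lists most often called, 1 point a gene, coloured red or blue where called higher with Sal or with Das and ringed in black where called with the replicate block. ERK feedback genes and keratins lie mostly to the right of 0 (medians 0.64 and 0.68), and all 10 AHR targets lie to the left.

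Among the receptors and ligands of the EGFR family, EGFR itself was not called. Of 12 tested, 0 were called higher with Sal and 2 higher with Das (1 and 3 at an unadjusted p under 0.05, 1 and 2 with DESeq2 and with the block). EGFR stood at 3254, 5364, 5440.1 and 5018 CPM with Sal and 2869, 5391, 5289 and 5900.5 CPM with Das, with the unnumbered library lowest in both groups (log2 Sal/Das -0.03 ± 0.23, adjusted p = 0.968), and the control gave 4681 to 4917 CPM. ERBB2, the HER2 receptor, had 96.5, 116, 105 and 121 CPM with Sal and 170.1, 195, 185 and 171 CPM with Das (log2 Sal/Das -0.71 ± 0.10, adjusted p = 0.00389), against 110.0 to 118 CPM in the control. ERBB3, its partner without kinase activity, was not called (adjusted p = 0.996). EPGN, epigen, a ligand of EGFR, had 0.109, 0, 0.140 and 0.0283 CPM and 1.12, 0.732, 0.970 and 0.576 CPM (log2 Sal/Das -3.60 ± 0.55, adjusted p = 0.00496), at most 4 counts in a Sal library. Leaving out 1 library took the adjusted p of ERBB2 to 0.0209 without Das replicate 1 and that of EPGN to 0.024 without Sal replicate 3.

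Of 18 tested kinases that Das binds, 1 was called, FYN, and 1 was higher with Sal and 2 with Das with the block. FYN (ENSG00000010810, GRCh37 chromosome 6, 111981535 to 112194655, minus strand), a SRC family kinase, stood at 6.90, 5.17, 6.602 and 6.22 CPM with Sal and 39.2, 31.0, 34.2 and 34.6 CPM with Das. The Sal libraries overlapped the control (6.59 to 8.43 CPM), and S + D overlapped Das (25.2 to 33.4 CPM). Its log2 Sal/Das was -2.48 ± 0.13 (adjusted p = 2.4e-05). SRC itself had 29.2, 43.03, 37.0 and 39.4 CPM and 42.7, 39.5, 37.5 and 38.3 CPM (log2 Sal/Das -0.08 ± 0.13, adjusted p = 0.751), and both groups lay under the control (47.7 to 51.8 CPM). ABL1, the other main target, had 85.1, 111, 90.2 and 108 CPM and 122, 139, 120.5 and 131 CPM without overlap. ABL1 had a log2 Sal/Das of -0.37 ± 0.12 (adjusted p = 0.0835, 0.00635 with the block). The collagen receptor DDR1 (0.33 ± 0.09, adjusted p = 0.065) missed the threshold, and YES1, a SRC family kinase, passed only with the block. YES1 had a log2 Sal/Das of 0.33 ± 0.13 (adjusted p = 0.147, 0.00732 with the block).

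Of 13 STAT and SOCS genes, which relay and restrain cytokine signals, 0 were called (4 higher with Sal and 1 higher with Das at an unadjusted p under 0.05, and 1 and 1 with DESeq2) and 2 higher with Sal and 1 higher with Das with the block. STAT3 had 257, 324, 307 and 310.2 CPM with Sal and 206, 238, 224 and 236 CPM with Das without overlap (log2 Sal/Das 0.41 ± 0.10, adjusted p = 0.0386, 0.00238 with the block), and it was called lower than the control with Das (-0.63 ± 0.08, adjusted p = 4.88e-05). STAT6 had 83.5, 102, 93.2 and 97.4 CPM and 126, 127, 133 and 123 CPM. STAT6 had a log2 Sal/Das of -0.43 ± 0.09 (adjusted p = 0.0242, 0.00411 with the block).

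The genes of DNA replication that passed, RRM1, RRM2 and CDC45, were all higher with Sal. Of 32 tested, 3 were called higher with Sal and 0 higher with Das by edgeR (17 and 0 at an unadjusted p under 0.05, 6 and 0 with DESeq2, 14 and 0 with the block), with a median log2 Sal/Das of 0.33. Against the control, 18 were called lower with Das and 7 with Sal (6.88% and 2.23% of all genes tested). With the block 27 and 14 were (14% and 8.71%). RRM2, the regulated subunit of ribonucleotide reductase, had 324, 476, 476 and 435 CPM with Sal and 221, 214, 216 and 223 CPM with Das. RRM2 had a log2 Sal/Das of 0.98 ± 0.13 (adjusted p = 0.00197). RRM1, its large subunit, had 183, 172, 177 and 169 CPM and 134, 98.5, 108 and 103 CPM (log2 Sal/Das 0.66 ± 0.11, adjusted p = 0.00798), and CDC45, of the replicative helicase, 74.5, 65.6, 65.1 and 67.3 CPM and 50.5, 41.3, 39.7 and 37.8 CPM. CDC45 had a log2 Sal/Das of 0.69 ± 0.12 (adjusted p = 0.00763). None of these overlapped between the drugs. S + D gave 87.2 to 101, 82.6 to 105 and 26.2 to 29.1 CPM, under both drugs for RRM2 and CDC45 and overlapping Das for RRM1. Leaving out Das replicate 1 took their adjusted p to 0.0137, 0.0428 and 0.0417.

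All 24 mitosis genes had a log2 Sal/Das above 0 (0.18 to 0.78, median 0.57), but 0 were called by edgeR (18 higher with Sal and 0 with Das at an unadjusted p under 0.05, 5 and 0 with DESeq2). With the block 4 were called, and without both unnumbered libraries all 24 were called higher with Sal, where 10.4% of all genes tested were (9.96% were higher with Das). MKI67, the proliferation antigen Ki-67, had 167, 659.6, 648 and 553 CPM with Sal and 188, 334, 324 and 372 CPM with Das (log2 Sal/Das 0.74 ± 0.38, adjusted p = 0.271, 3.33e-06 in the numbered libraries). CENPF, a kinetochore protein, had 201, 571, 642 and 505 CPM and 222, 279, 309 and 313 CPM (log2 Sal/Das 0.78 ± 0.30, adjusted p = 0.147, 2.83e-06 in the numbered libraries). Against the control, 23 mitosis genes were called lower with Das and 4 with Sal (6.88% and 2.23% of all genes tested). With the block 18 were called lower with Sal (8.71%).

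The pathway of entry into S phase that the study examined gave 1 call in 24 tested genes, MYC, higher with Das (9 higher with Sal and 2 higher with Das at an unadjusted p under 0.05, 3 and 1 with DESeq2, 3 and 2 with the block). The study chose this pathway on libraries of this series, so its direction is not independent evidence. CCND1, cyclin D1, had 97.0, 140.4, 139 and 132 CPM with Sal and 76.7, 117, 110.2 and 124 CPM with Das (log2 Sal/Das 0.25 ± 0.17, adjusted p = 0.42) and was called lower than the control (253 to 264 CPM) with Sal (-1.03 ± 0.16, adjusted p = 0.000416) and with Das (-1.27 ± 0.16, adjusted p = 2.52e-05). The transcription factor E2F2 (0.30 ± 0.12, adjusted p = 0.164), the phosphatase CDC25A (0.36 ± 0.10, 0.0657), the kinase CDK2 (0.05 ± 0.09, 0.782), cyclin CCNE2 (0.28 ± 0.14, 0.252) and TFDP1, the partner of E2F factors (0.01 ± 0.09, 0.972), were not called, nor were E2F2, CDC25A, CDK2 and CCNE2 with the block. CDC25A nonetheless did not overlap between the drugs, at 24.1, 26.9, 26.7 and 25.6 CPM with Sal and 21.9, 19.6, 18.3 and 21.1 CPM with Das. CCNE2 shares 37.1% and CDK2 16.8% of its exon bases with another gene. ESR2, estrogen receptor beta, was under the filter, with 0.245, 0, 0.0349 and 0.0283 CPM with Sal and 0, 0, 0.188 and 0.0768 CPM with Das, at most 9 counts in a library, and an exact permutation test gave a two-sided p of 0.83, where the smallest possible is 0.0286. The difference in ESR2 was not detectable at this depth.

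Among 17 inhibitors of cyclin-dependent kinases and p53 targets, CDKN2C (p18INK4c) was the 1 called, with 51.9, 67.9, 62.6 and 64.6 CPM with Sal and 39.1, 37.3, 36.5 and 34.3 CPM with Das (log2 Sal/Das 0.75 ± 0.11, adjusted p = 0.00389, 0.0235 without Das replicate 1), and 3 were higher with Sal and 1 with Das with the block; 20.4% of its exon bases are shared with another gene. PLK2 (0.06 ± 0.13, adjusted p = 0.831) and MDM2 (0.25 ± 0.16, 0.393), both p53 targets, were not called. In the MYC network and ribosome biogenesis 1 of 29 was called, MYC itself, and with the block 3 were higher with Sal and 2 with Das; the nucleolar proteins NPM1 (log2 Sal/Das 0.42 ± 0.10, adjusted p = 0.0294, 0.00295 with the block) and NCL (adjusted p = 0.611) had the highest CPM. Of 15 BCL2 family genes 1 was called and 1 and 2 with the block: MCL1, an inhibitor of apoptosis with a short-lived protein, at 405, 369.5, 391.6 and 373 CPM with Sal and 280.2, 260.2, 263 and 259 CPM with Das. MCL1 had a log2 Sal/Das of 0.54 ± 0.08 (adjusted p = 0.00487, 0.0329 without Das replicate 1). BCL2L1, which encodes BCL-XL, was not called (adjusted p = 0.935).

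Most sterol synthesis and uptake genes rose with both drugs, and none was called between them. Of 24 tested, 18 were called higher than the control with Sal and 19 with Das, against 4.55% and 6.99% of all genes tested. Between the drugs 0 were called, with a median log2 Sal/Das of 0.00122. At an unadjusted p under 0.05, 2 were higher with Sal and 1 with Das. DESeq2 called 0 and 1, and the block 0 and 1. DHCR7, the last step of cholesterol synthesis, had 1009, 758, 651 and 776 CPM with Sal and 925, 920.4, 837 and 873 CPM with Das (log2 Sal/Das -0.15 ± 0.13, adjusted p = 0.551), against 404 to 542 CPM in the control. Of 13 fatty acid synthesis genes 0 were called (2 higher with Sal and 2 higher with Das at an unadjusted p under 0.05, and 1 and 1 with DESeq2; 3 and 2 with the block); SCD, the stearoyl-CoA desaturase, had 749, 1005, 1063 and 1062 CPM and 572, 823, 840.0 and 859 CPM (log2 Sal/Das 0.33 ± 0.16, adjusted p = 0.239, 0.00492 with the block), and FASN was not called (adjusted p = 0.623). Of 7 genes of sterol export, NR1D1, a heme-binding nuclear receptor of the clock that stood on this list, was the 1 called, with 9.89, 14.6, 14.0 and 18.1 CPM and 5.03, 5.33, 4.47 and 5.30 CPM (log2 Sal/Das 1.496 ± 0.18, adjusted p = 0.00155); 18.0% of its exon bases are shared with another gene, and the oxysterol receptor NR1H2 (adjusted p = 0.488) and LPCAT3 (adjusted p = 0.999) were not called.

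Glycolysis and hypoxia genes had mostly positive values without a call. Of 29 tested, 27 had a log2 Sal/Das above 0 (median 0.41), 0 were called (6 higher with Sal and 1 higher with Das at an unadjusted p under 0.05, and 4 and 0 with DESeq2), and 13 higher with Sal with the block. LDHA, lactate dehydrogenase A (0.67 ± 0.13, adjusted p = 0.0152 and 0.000394), PKM, pyruvate kinase (0.41 ± 0.09, 0.0239 and 0.00251), and CA9, a carbonic anhydrase of hypoxic cells (1.35 ± 0.92, 0.415 and 9.03e-05), passed only with the block, and GAPDH in neither (0.13 ± 0.13, 0.597).

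Of 37 genes of the lysosome, the V-ATPase and autophagy 1 was called, 2.70% against 2.59% of all genes tested. With the block 3 were higher with Sal and 2 with Das, where 6.15% and 6.4% of all genes tested were. CTSL, the lysosomal protease cathepsin L, had 21.4, 25.4, 25.0 and 27.8 CPM with Sal and 49.4, 43.6, 47.6 and 42.1 CPM with Das (log2 Sal/Das -0.87 ± 0.11, adjusted p = 0.00207, 0.0125 without Das replicate 2), while PSAP (adjusted p = 0.897) and the autophagy receptor SQSTM1 (adjusted p = 0.936) were not called. Of 12 genes of iron uptake, storage and export 0 were called (5 higher with Sal and 1 higher with Das at an unadjusted p under 0.05, and 2 and 0 with DESeq2; 4 higher with Sal with the block). FTH1, the ferritin heavy chain, had 1329, 1738, 1840.0 and 1740.5 CPM and 1221, 1313, 1141 and 1466 CPM (log2 Sal/Das 0.38 ± 0.12, adjusted p = 0.0981), and TFRC, the transferrin receptor, was not called (adjusted p = 0.318). Of 17 genes of the sodium potassium pump and the osmotic response, 1 was called (2 and 3 with the block): SGK1, a kinase that raises sodium transport, at 3.08, 3.61, 4.09 and 3.28 CPM with Sal and 8.28, 6.27, 6.91 and 6.80 CPM with Das (log2 Sal/Das -1.01 ± 0.15, adjusted p = 0.00456, 0.024 without Sal replicate 3), called lower than the control with Sal (-0.87 ± 0.13, adjusted p = 0.000445). FXYD3, a regulator of the pump, was not called (adjusted p = 0.977). Of 7 tested genes of metallothioneins and zinc transport 2 were called, both higher with Sal: MT2A at 378, 444, 335 and 454 CPM and 195, 218, 204 and 211 CPM (log2 Sal/Das 0.97 ± 0.12, adjusted p = 0.00143) and MT1X at 96.3, 82.3, 70.6 and 85.2 CPM and 42.6, 53.4, 54.7 and 49.2 CPM. MT1X had a log2 Sal/Das of 0.75 ± 0.13 (adjusted p = 0.0087, 0.0354 without Sal replicate 3). These metal-binding proteins come from near-identical genes, and MT1X shares 18.6% of its exon bases with another gene.

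Of the remaining lists, inflammatory and Wnt genes held the calls past both cutoffs. Of 17 inflammatory chemokines and NF-kB targets, 2 were higher with Sal and 0 higher with Das (6 and 1 at an unadjusted p under 0.05, 4 and 1 with DESeq2, 6 and 1 with the block). LIF, a cytokine of the IL-6 family, had 46.2, 20.6, 19.1 and 19.8 CPM with Sal and 8.81, 5.89, 7.29 and 4.76 CPM with Das (log2 Sal/Das 1.99 ± 0.33, adjusted p = 0.00675, 0.033 without Das replicate 1), and SAA2, an acute-phase protein with the near-identical SAA1, 6.38, 5.50, 5.06 and 5.52 and 3.09, 1.35, 1.47 and 1.46 CPM. SAA2 had a log2 Sal/Das of 1.60 ± 0.27 (adjusted p = 0.00807, 0.0364 without Das replicate 1). Of 17 Wnt pathway genes, DKK1, a secreted inhibitor of Wnt receptors, was higher with Sal at 6.21, 7.65, 7.195 and 7.24 CPM against 1.22, 2.14, 1.94 and 2.27 CPM. DKK1 had a log2 Sal/Das of 1.91 ± 0.21 (adjusted p = 0.000741). WNT5A, a ligand of the noncanonical branch, was higher with Das at 10.96, 13.3, 15.0 and 13.7 CPM with Sal against 24.8, 27.4, 27.7 and 32.8 CPM. WNT5A had a log2 Sal/Das of -1.08 ± 0.14 (adjusted p = 0.00165). With the block 2 Wnt genes were higher with each drug. Of 11 Notch pathway genes 1 was called (1 and 2 with the block), the ligand JAG1, at 53.2, 51.0, 53.6 and 54.3 CPM with Sal and 37.7, 30.5, 31.1 and 32.04 CPM with Das (log2 Sal/Das 0.70 ± 0.10, adjusted p = 0.00389, 0.0277 without Das replicate 1), and the receptors NOTCH2 (adjusted p = 0.955) and NOTCH3 (adjusted p = 0.636) were not called.

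Among 15 TGF-beta and BMP targets 0 were called (2 higher with Sal and 2 higher with Das at an unadjusted p under 0.05, and 0 and 0 with DESeq2; 2 and 1 with the block), with ID3 (adjusted p = 0.86) and PMEPA1 (adjusted p = 0.905) those of highest CPM. Of 15 FOXO targets and receptor feedback genes 0 were called (3 higher with Sal and 1 higher with Das at an unadjusted p under 0.05, and 2 and 1 with DESeq2; 2 and 1 with the block), though CITED2, a coactivator-binding protein, did not overlap at 199, 201, 201 and 198 CPM with Sal and 246, 305, 312 and 319 CPM with Das. CITED2 had a log2 Sal/Das of -0.56 ± 0.10 (adjusted p = 0.0118, 0.00172 with the block). Of 26 interferon-stimulated and MHC class I genes 0 were called (6 higher with Sal and 2 higher with Das at an unadjusted p under 0.05, and 2 and 1 with DESeq2; 3 and 1 with the block), with B2M (adjusted p = 0.26) among those of highest CPM. Of 6 multidrug transporters 0 were called (1 higher with Sal and 2 higher with Das at an unadjusted p under 0.05, and 0 and 1 with DESeq2; 0 and 1 with the block), with ABCC3 (adjusted p = 0.508) and ABCC1 (adjusted p = 0.844) those of highest CPM. Mitochondrially encoded subunits were not analysed here.

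**Figure D4:**
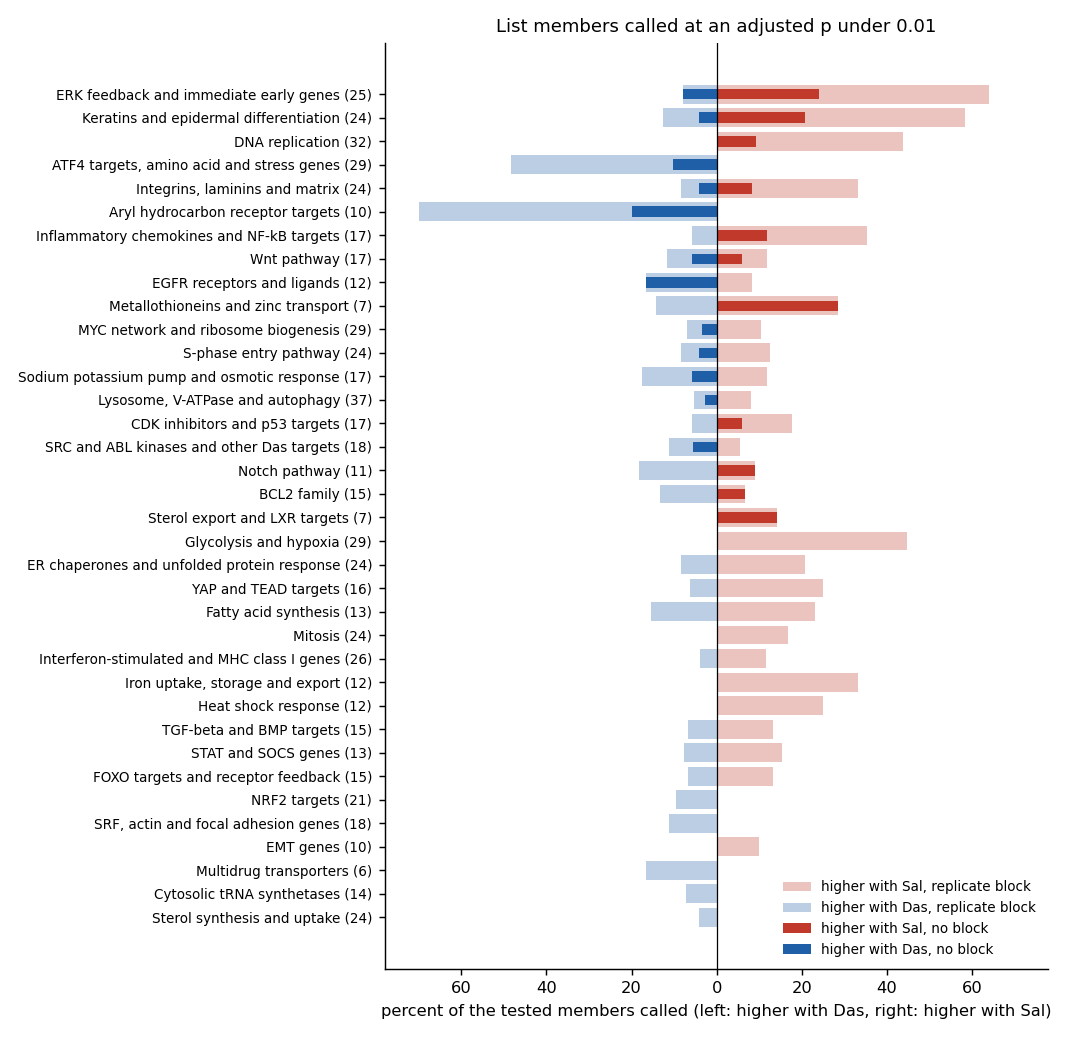
Percent of the tested members of each list called higher with Sal or with Das at 24 h (adjusted p under 0.01), without and with the replicate block. By number, ERK feedback genes lead toward Sal with 6 of 25 (16 with the block), and ATF4 targets toward Das with 3 of 29 (14 with the block). By share without the block, metallothioneins and zinc transport lead toward Sal with 2 of 7. AHR targets lead toward Das by share with 2 of 10 (7 with the block). Of all genes tested, 0.942% were called higher with Sal and 1.64% with Das (6.15% and 6.4% with the block).

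The difference between the drugs was then followed to 72 h, in libraries that took no part in the 24 h comparison. Of the 50 genes higher with Sal at 24 h, 30 were higher with Sal at 72 h without overlap between the groups and 2 were higher with Das, where 18.4% and 20.1% of all genes tested had such separations. Of the 110 genes higher with Das, 80 were higher with Das at 72 h without overlap and 1 was higher with Sal. By the interaction term (72 h less 24 h, over 16475 genes), the difference moved toward Das in 9 of 49 tested genes higher with Sal at 24 h, and it moved toward Sal in 18 and toward Das in 2 of the 110, where 1.3% of all genes moved toward Sal and 3.81% toward Das. These 160 genes were chosen on the 24 h libraries, which also enter the interaction, so its counts among them are a description only. Das replicate 3 of 72 h lay apart from the other Das libraries in RRM2, MKI67 and EGR1, and the interaction without it is given beside that of the genes with levels below. Levels over both time points are CPM on a scale of the 16 Sal and Das libraries.

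SMOC1 kept its difference, at 0.930, 0.421, 0.593 and 0.703 CPM with Sal and 35.3, 22.8, 29.2 and 18.2 CPM with Das at 72 h. Its interaction was not called (1.26 ± 0.43, adjusted p = 0.0635, and 1.15, adjusted p = 0.103, without Das replicate 3). EGR1 likewise lay at 18.2, 73.5, 65.4 and 58.3 CPM with Sal and 0.851, 0.905, 0.968 and 7.47 CPM with Das (interaction 0.92 ± 0.89, adjusted p = 0.552, and 2.43, adjusted p = 0.0451, without Das replicate 3). Genes of proliferation moved the other way: RRM2 had 62.2, 25.8, 20.2 and 20.8 CPM with Sal and 121, 85.0, 106 and 399 CPM with Das at 72 h. Its log2 Sal/Das moved by -3.45 ± 0.61, adjusted p = 0.00231, and by -2.66 (adjusted p = 0.00159) without Das replicate 3. MKI67 had 58.2, 35.9, 30.7 and 34.8 CPM and 166, 117, 139 and 479.6 CPM (interaction -3.26 ± 0.63, adjusted p = 0.00374, and -2.55, adjusted p = 0.00515, without Das replicate 3), with an adjusted p of up to 0.0114 when 1 of the other libraries was left out (Sal replicate 1 of 24 h). CENPF moved the same way (interaction -2.97 ± 0.49, adjusted p = 0.00172, and -2.45, adjusted p = 0.00167, without Das replicate 3). Of 24 mitosis genes 22 were called toward Das by the interaction term, and of 32 replication genes 5, against 3.81% of all genes tested. With the block 23 and 9 were, where 1418 of 15676 genes were.

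The named genes with the lowest and highest interaction were of several kinds. MGP, the matrix Gla protein that inhibits calcification, was higher with Sal at 24 h (151, 381, 415 and 375 CPM against 54.2, 88.2, 88.6 and 93.0 CPM, log2 Sal/Das 2.03 ± 0.31, adjusted p = 0.00446). At 72 h MGP had 73.4, 70.4, 69.2 and 64.3 CPM with Sal and 101, 127, 155 and 265 CPM with Das (interaction -3.28 ± 0.43, adjusted p = 0.000701, and -2.90, adjusted p = 0.000686, without Das replicate 3). CP, the copper-carrying ferroxidase ceruloplasmin, had 31.8, 26.9, 34.0 and 28.5 CPM with Sal and 16.5, 6.45, 6.41 and 7.57 CPM with Das at 24 h (log2 Sal/Das 1.71 ± 0.30, adjusted p = 0.00857), and its interaction of -3.01 ± 0.68, adjusted p = 0.00808 had an adjusted p of 0.0211 without Das replicate 3 and 0.0221 without Sal replicate 1 of 72 h; 20.1% of its exon bases are shared with another gene. ADGRF5, an adhesion G protein-coupled receptor, had 0.354, 1.15, 1.64 and 0.990 CPM and 0.0718, 0.146, 0.0626 and 0.115 CPM at 24 h (log2 Sal/Das 3.35 ± 0.53, adjusted p = 0.00556), and its interaction was not called (-3.79 ± 1.03, adjusted p = 0.0234). At 24 h the adjusted p of these rose to 0.0209 without Das replicate 1, 0.0374 without Das replicate 1 and 0.0262 without Das replicate 2 with 1 library left out. The noncoding RNA LINC01913 was higher with Das at 24 h (0.491, 0.443, 0.105 and 0.198 CPM with Sal, 2.18, 2.29, 2.00 and 2.07 CPM with Das, log2 Sal/Das -2.74 ± 0.37, adjusted p = 0.00244, 0.0126 without Sal replicate 3). At 72 h LINC01913 had 3.62, 1.26, 0.824 and 1.02 CPM with Sal and 0.778, 0.499, 0.179 and 0.404 CPM with Das (interaction 4.56 ± 0.71, adjusted p = 0.00142, and 4.50, adjusted p = 0.00255, without Das replicate 3). The interactions of EPGN (3.80 ± 0.92, adjusted p = 0.013) and MRO (3.36 ± 1.00, adjusted p = 0.0344) were not called. MRO, named maestro, had 0, 0.0887, 0.0349 and 0 CPM with Sal, at most 3 counts in a library, and 0.622, 1.03, 1.22 and 1.11 CPM with Das at 24 h, where every Das library lay above every Sal library (adjusted p = 0.00171).

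NR4A3 moved toward Sal, with 8.32, 13.3, 14.8 and 16.5 CPM with Sal and 12.5, 10.6, 10.5 and 4.67 CPM with Das at 72 h (interaction 3.07 ± 0.57, adjusted p = 0.00318, and 2.87, adjusted p = 0.00496, without Das replicate 3). CPE moved the same way, with 18.9, 27.4, 30.7 and 33.8 CPM against 35.7, 57.4, 59.9 and 42.4 CPM (interaction 1.99 ± 0.32, adjusted p = 0.00157, and 1.96, adjusted p = 0.00248, without Das replicate 3). GRAMD1B (1.65 ± 0.25, adjusted p = 0.00122) and FYN (1.13 ± 0.21, adjusted p = 0.00318, and 1.10, adjusted p = 0.00607, without Das replicate 3) also moved toward Sal. FYN had 16.6, 11.9, 15.0 and 13.5 CPM with Sal against 45.1, 30.5, 35.4 and 31.7 CPM with Das at 72 h. PER3 (-2.67 ± 0.54, adjusted p = 0.0047), KMO (-1.82 ± 0.38, adjusted p = 0.00566) and SLC5A1 (-1.84 ± 0.39, adjusted p = 0.00595) moved toward Das, with an adjusted p of up to 0.0141, 0.0159 and 0.0175 when 1 library of 24 h was left out (Sal replicate 1 for PER3 and SLC5A1, Sal replicate 2 for KMO). Without Das replicate 3 the interaction of PER3 was -1.98 (adjusted p = 0.00468).

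**Figure D5:**
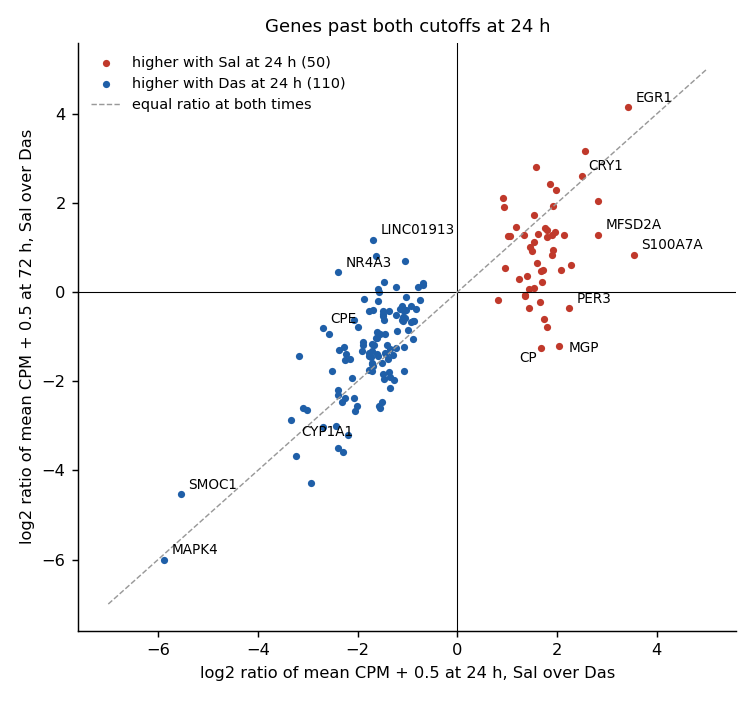
Log2 ratio of mean CPM + 0.5, Sal over Das, at 72 h (vertical axis) against 24 h (horizontal axis) for the 160 genes past both cutoffs at 24 h. Most points keep their side of 0. By the stricter measure of no overlap between the libraries at 72 h, 30 of 50 genes higher with Sal and 80 of 110 higher with Das were so again.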

How the data were processed

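RNA from MDA-MB-468 monolayers was sequenced in 32 libraries, and the gene table deposited by the authors holds raw read counts for 48804 genes. Per the labels, bcl2fastq 2.19, STAR 2.5.2, Cufflinks 2.1.1 and DESeq2 were used with GRCh37; the counting program, annotation and strand setting are not given in the sources used here. Genes that share exon bases with another gene, on either strand, are therefore marked with that share where it is at least 15%, from an annotation matched to 46537 of the genes. Of those marked nowhere else it was 66.0% for LPCAT3, 63.2% for FTH1, 58.7% for AHRR, 49.3% for ASNS, 41.3% for BCL2L1, 39.6% for DDIT3, 38.1% for FXYD3, 35.7% for CA9, 22.4% for SQSTM1, 22.1% for NR1H2, 19.4% for NQO1, 17.6% for GAPDH and 15.1% for HSPA8.

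Libraries were grouped by drug and time from the labels. The 8 Sal and Das libraries of 24 h were fitted alone with edgeR 4.0.16 in R 4.3.3 (TMM, filterByExpr with a minimum count of 10, quasi-likelihood test), with Benjamini-Hochberg adjustment over all genes tested. Genes were called at an adjusted p under 0.01, and counted as past both cutoffs with an absolute log2 fold change above 1.5. Control and S + D comparisons were fitted over the 16 libraries of 24 h, and the interaction over the Sal and Das libraries of both times. An exact permutation test served for ESR2, which was under the filter. Depths are given with the results; they limit counting error only, and p-values measure the spread between cultures of 1 line.

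Same-numbered Sal and Das libraries deviated together from their group means (correlations of 0.681, 0.317, 0.413 and 0.315 for unnumbered, 1, 2 and 3), so the numbers were taken to pair the libraries by the data, not by a statement of the study. Differently numbered libraries among 1 to 3 correlated at 0.184 to 0.410, and unnumbered with numbered ones at -0.535 to -0.358, so the correlations tell the unnumbered from the numbered libraries and do not tell the numbers 1 to 3 apart. On simulated data for this comparison (15529 genes), 44% of genes changed by 1 on the log2 scale and 94% of those changed by 2 were recovered without the block. With it 98% and 100% were, and 0 and 7 of 15329 unchanged genes were called without and with it. Changes were placed only in genes above a minimum mean count. Both drugs were given the same profile of the unnumbered library and no other pairing. These rates therefore do not cover genes of few counts or the real spread between libraries. DESeq2 1.42.0, the replicate block, the numbered libraries alone, other fits and cutoffs, and leaving out each library were tried.

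Named genes were the 12 protein-coding genes with the highest and the 12 with the lowest log2 Sal/Das past both cutoffs (at least 5 CPM, no overlap), up to 5 called members of each list (at least 1 CPM; where fewer than 2 were called, the 2 of highest CPM), genes the study names or that encode drug targets, and the 3 highest and 3 lowest interactions. The list members given by their log2 value and 2 adjusted p-values alone, and the families of the closing section, fall outside this rule and were chosen after their values were seen. Some named genes are not reported here. The groups compared, the lists and the rule were chosen with earlier results of these data known.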

Additional observations from a re-analysis of the deposited data

Results flagged for a closer look

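In 32 of 192 groups of 4 libraries at 24 h (16.7%), 1 library lay apart from the other 3 by Dixon's criterion, where chance alone gives about 1 in 20. In 30 of the 32 it was the unnumbered library, and why was not tested. Among the Sal libraries, the unnumbered one was high for CYP1A1 (83.3 CPM), EGR1 (153 CPM), ESR2 (0.245 CPM), LIF (46.2 CPM), MFSD2A (191 CPM), MUC4 (22.9 CPM), NR4A1 (19.9 CPM) and NR4A3 (5.37 CPM). It was low for EPHA4 (11.96 CPM), KRT23 (59.6 CPM), MGP (151 CPM), NPAS2 (17.9 CPM), PDE4B (18.4 CPM), PDE4D (2.29 CPM) and PER2 (15.7 CPM).

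Among the Das libraries, the unnumbered one was high for CP (16.5 CPM), CYP1A1 (885 CPM), DDIT4L (16.8 CPM), EGR1 (23.8 CPM), MFSD2A (19.6 CPM), MMP7 (1.68 CPM), SAA2 (3.09 CPM) and TEF (16.4 CPM). It was low for KCNIP3 (27.8 CPM), KRT23 (17.4 CPM), MAPK4 (64.0 CPM), MGP (54.2 CPM), PER2 (7.87 CPM), SCD (572 CPM) and THBS1 (77.8 CPM). The exceptions were ACTB, for which Das replicate 2 was low at 3137 CPM, and PGD, for which Das replicate 3 was low at 463 CPM. At 72 h, 5 of 18 groups had 1 library apart: Das replicate 3 was high for EGR1 (7.47 CPM), MKI67 (479.6 CPM) and RRM2 (399 CPM), and the unnumbered Sal library for LINC01913 (3.62 CPM) and RRM2 (62.2 CPM).

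The difference between the drugs changed from 24 to 72 h, by the interaction term of edgeR, for 24 of the 155 genes whose values are given and that could be fitted. Of all genes tested, 1.3% moved toward Sal and 3.81% toward Das. Some of the 155 were named for their interaction, and others were chosen on the 24 h libraries that enter it. The count is therefore a description only. It moved toward Sal for LINC01913 (4.56 ± 0.71, adjusted p = 0.00142), NR4A3 (3.07 ± 0.57, adjusted p = 0.00318), CPE (1.99 ± 0.32, adjusted p = 0.00157), GRAMD1B (1.65 ± 0.25, adjusted p = 0.00122) and FYN (1.13 ± 0.21, adjusted p = 0.00318). It moved toward Das for RRM2 (-3.45 ± 0.61, adjusted p = 0.00231), MGP (-3.28 ± 0.43, adjusted p = 0.000701), MKI67 (-3.26 ± 0.63, adjusted p = 0.00374), CP (-3.01 ± 0.68, adjusted p = 0.00808), CENPF (-2.97 ± 0.49, adjusted p = 0.00172), PER3 (-2.67 ± 0.54, adjusted p = 0.0047), CIART (-2.105 ± 0.45, adjusted p = 0.00613), SLC5A1 (-1.84 ± 0.39, adjusted p = 0.00595), KMO (-1.82 ± 0.38, adjusted p = 0.00566), PER2 (-1.60 ± 0.32, adjusted p = 0.00437), CDKN2C (-1.499 ± 0.28, adjusted p = 0.003) and PDE4B (-1.34 ± 0.18, adjusted p = 0.000725). PDE4B was higher with Das already at 24 h. The difference also moved toward Das for PHLDA1 (-1.37 ± 0.25, adjusted p = 0.0025), SPRY1 (-1.23 ± 0.17, adjusted p = 0.000808), SRC (-1.21 ± 0.23, adjusted p = 0.00369), PLK2 (-1.19 ± 0.25, adjusted p = 0.00577), CDK2 (-1.01 ± 0.23, adjusted p = 0.00906), ACTB (-0.95 ± 0.16, adjusted p = 0.00202) and B2M (-0.81 ± 0.14, adjusted p = 0.00203), which were not called at 24 h. Without Das replicate 3 of 72 h, CDK2 (adjusted p = 0.0194), CP (0.0211) and PLK2 (0.0146) were no longer called. With 1 library left out, the adjusted p reached 0.0257 for CDK2, 0.0138 for SRC, 0.0141 for PER2 and 0.0179 for CIART (all without Sal replicate 1 of 24 h) and 0.016 for PLK2 (without Sal replicate 1 of 72 h).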

How the results depend on the processing

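No alternative reversed any of the 63 named genes that were called, and 5 of them lost the call outside leaving libraries out: CDC45 and MCL1 without the filter on low counts, CP and JAG1 in the fits of 16 and 32 libraries, and RRM2 in that of 32. With 1 library left out, 30 of the 63 lost it at least once. The uncalled EGFR changed sign with the replicate block (0.000202) and ranged from -0.21 to 0.12 with 1 library left out, and the uncalled SRC with the numbered libraries (0.0369), ranging from -0.17 (Sal replicate 1) to 0.0133 (unnumbered Sal) with 1 library left out. The 50 genes higher with Sal became 101 with the replicate block, 113 with a term for the unnumbered libraries, 117 in the numbered libraries, 90 and 116 in the fits of 16 and 32 libraries, 93 with DESeq2, 148 by adjusted p alone and 81 with an absolute log2 above 1. The 110 higher with Das became 169 with the term for the unnumbered libraries, 258 by adjusted p alone and 177 with an absolute log2 above 1. With 1 library left out they ranged from 24 (Das replicate 2) to 83 (unnumbered Sal) and from 73 (Sal or Das replicate 1) to 132 (unnumbered Sal). Against the control, the 1 gene lower with Sal became 10 with the block, 5 in the numbered libraries and 8 with DESeq2, and 1 to 2 with 1 library left out; the 117 higher ranged from 69 (unnumbered Sal) to 139. The 175 genes lower with S + D than with Sal became 278 in the numbered libraries. For S + D against Das, 22 higher and 30 lower became 56 and 47 with the block and 47 and 57 in the numbered libraries, and the 22 ranged from 14 (Das replicate 3) to 18. For the interaction, 130 higher became 221 with the block, 334 in the numbered libraries and 241 with DESeq2, and the 401 lower 763 in the numbered libraries; they ranged from 60 (Sal replicate 1) to 288 and from 185 (Sal replicate 2) to 592 (both without the unnumbered Sal library of 24 h). The cause of these moves was not tested. Among the genes named by the rule, pairing by the replicate block made 10 pass and took no call away. Members given by 2 adjusted p-values alone and the families of the closing section are outside this count. Over all genes tested, calls by adjusted p alone rose from 148 and 258 to 965 and 1005. Genes with few counts, such as ESR2 and EPGN, are limited by depth.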

Other observations

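Families outside the lists were described after their values were seen, so their counts beside the shares of all genes are a description only. Of 19 core clock genes tested, 7 were called higher with Sal and 1 higher with Das (0.942% and 1.64% of all genes tested), and 12 and 1 with the block, with a median log2 Sal/Das of 1.23. Besides CRY1, PER3 and NR1D1, the genes higher with Sal were PER2, DBP, TEF and CIART. TEF, a PAR bZIP factor and clock output, had 24.0, 38.5, 33.7 and 36.8 CPM with Sal and 16.4, 11.7, 11.04 and 10.8 CPM with Das (log2 Sal/Das 1.41 ± 0.19, adjusted p = 0.00231), with the control at 45.3 to 51.0 CPM and S + D at 6.02 to 8.77 CPM. PER2, a clock repressor, had 15.7, 22.4, 21.8 and 21.9 CPM and 7.87, 9.90, 9.82 and 9.60 CPM. PER2 had a log2 Sal/Das of 1.14 ± 0.15 (adjusted p = 0.00202). NPAS2, which can replace CLOCK as the partner of BMAL1, ran the other way, with 17.9, 25.7, 25.3 and 25.8 CPM with Sal and 62.3, 87.5, 90.4 and 94.6 CPM with Das. NPAS2 had a log2 Sal/Das of -1.82 ± 0.17 (adjusted p = 0.000357). The Sal and Das libraries did not overlap in these 3 genes. With 1 library left out, the adjusted p rose to 0.0152 without Das replicate 1 for TEF, 0.011 without Sal replicate 3 for PER2, 0.0406 without Das replicate 1 for DBP and 0.0299 without Das replicate 1 for CIART. Each group was taken at 1 time, so a phase of the clock could not be read.

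Among phosphodiesterases that break down cAMP, PDE4B, PDE4D and PDE7B were higher with Das. Of 7 tested phosphodiesterases of families 4, 7 and 8, 0 were called higher with Sal and 3 higher with Das by edgeR (1.64% of all genes tested were higher with Das), and 5 with the block (6.4%). Phosphodiesterases of other families were not counted, and these were chosen after their values were seen. PDE4B had 18.4, 22.3, 21.8 and 21.8 CPM with Sal and 105, 105, 111 and 108 CPM with Das (log2 Sal/Das -2.34 ± 0.10, adjusted p = 8.34e-06), PDE4D had 2.29, 4.43, 4.37 and 4.75 CPM and 18.0, 22.1, 22.7 and 24.7 CPM (log2 Sal/Das -2.46 ± 0.23, adjusted p = 0.000327), and PDE7B had 0.518, 0.325, 0.489 and 0.651 CPM and 3.18, 4.34, 5.19 and 4.46 CPM. PDE7B had a log2 Sal/Das of -3.10 ± 0.26 (adjusted p = 0.000174). PDE8B missed the threshold. PDE8B had a log2 Sal/Das of -2.04 ± 0.37 (adjusted p = 0.0107, 1.04e-05 with the block). Of the exon bases of PDE8B 51.6% are shared with another gene. The same shares of all genes stand beside the next families. All 3 NR4A receptors were higher with Das: beside NR4A3, NR4A1 had 19.9, 9.37, 9.08 and 9.45 CPM and 72.6, 56.4, 54.6 and 51.5 CPM (log2 Sal/Das -2.29 ± 0.27, adjusted p = 0.00129), and NR4A2 had 26.4, 22.6, 22.7 and 24.4 CPM and 54.9, 52.6, 58.4 and 58.7 CPM. NR4A2 had a log2 Sal/Das of -1.22 ± 0.10 (adjusted p = 0.000183). SIK1, a salt-inducible kinase, had 32.2, 39.7, 33.3 and 37.7 CPM and 172, 146, 149 and 138 CPM (log2 Sal/Das -2.08 ± 0.12, adjusted p = 2.4e-05), with 91.0% of its exon bases shared with another gene, so its counts are uncertain, and the other 2 salt-inducible kinases were not called.

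MUC4, a membrane mucin, was highest in the unnumbered Sal library. It had 22.9, 1.27, 1.15 and 1.92 CPM with Sal, and 0.0718, 0.0586, 0 and 0.0384 CPM with Das, where no library had more than 3 counts. Its log2 Sal/Das was 7.16 ± 1.45 (adjusted p = 0.0177, 1.55e-05 with the block) and 5.31 in the numbered libraries (adjusted p = 6.23e-06). CD14, a leukocyte marker that this line also expressed, had 14.1, 13.5, 11.98 and 14.4 CPM and 4.14, 3.49, 2.85 and 2.73 CPM. CD14 had a log2 Sal/Das of 2.03 ± 0.16 (adjusted p = 0.000152). AQP3, a channel for water and glycerol, had 29.9, 48.4, 37.0 and 47.9 CPM and 167, 222, 202 and 202 CPM. AQP3 had a log2 Sal/Das of -2.28 ± 0.17 (adjusted p = 0.000114).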
